A study of Mus musculus with 186 samples.

Results

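The 31 genes described here are those whose intronic RNA rose most in cultured mouse cortical neurons during sustained activity while lying outside the bait panel with which the same study captured activity-regulated transcripts. They were chosen by their readout in the intron table of total RNA: with 1 transcript per symbol, the mean of vehicle cultures after 60 min of sustained activity had to be at least 3 RPM (intron reads scaled to the depth of the library), and the log2 ratio of that mean to the mean of unstimulated vehicle cultures, with 0.25 RPM added to both, at least 1.5. Of 18528 symbols in the table, 74 passed both limits and 43 of these were on the panel of 298, which left 31. Sap18 and Sap18b, near-identical copies, carried the same value in every library and are counted once below, so counts are out of 30.

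Neurons were dissected from CD1 mouse embryos at E16.5 and grown for 7 to 8 days in vitro, and the study asked how brief and sustained activity differ and what part the kinase MEK has in that. Cultures with U0126, which blocks MEK and so the activation of ERK, were unstimulated, received brief activity and were sampled at 20 or 60 min, or received sustained activity for 20 or 60 min. Cultures with DMSO, the vehicle, formed the same 5 groups. How the cultures were activated is not stated in the labels. Each group had 2 replicates except U0126 sustained 60 min and vehicle brief 60 min, which had 1 each, since a deposited column of one equalled a column of the other and both were left out. Each unstimulated replicate is the mean of 2 libraries, which the labels call technical replicates: separately grown cultures of 1 dissection. For the stimulated groups the labels do not say which dissection a replicate came from, so p-values measure the spread between these samples, which may be technical.

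Neuronal activity lets calcium into the cell, and calcium-dependent kinases and the ERK pathway then act on transcription factors already bound at promoters, among them CREB at the cAMP response element (CRE) and the SRF complex at the CArG box. Genes switched on this way without new protein are called immediate-early genes, and many encode transcription factors. Reads over introns come mostly from RNA that has not been spliced yet, so their level follows recent transcription more closely than the level of mature mRNA does, although slower splicing or slower intron decay would raise it too.

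The 22 libraries used held 10486281 to 25945718 intron reads each, with a median of 18454336, and no gene of the 31 fell below 4 reads in any library. Summed intron levels of 6 neuronal markers lay between 747 and 1130 RPM across libraries and those of 6 astrocyte markers between 299.9 and 504 RPM, so RNA of glial marker genes was present too. In vehicle cultures these sums overlapped between the 2 groups that chose the genes: neuronal markers summed to 884 to 1097 RPM at 60 min of sustained activity and to 778 to 1040 RPM in unstimulated cultures, and astrocyte markers to 309 to 459 RPM at 60 min and to 357 to 472 RPM in unstimulated cultures. The 4 markers of excitatory neurons did not overlap, with 141 to 167 RPM at 60 min and 188 RPM in both unstimulated replicates, and their part in the results was not tested. Microglial markers summed to at most 5.91 RPM and endothelial markers to at most 2.61 RPM. In such bulk samples, fewer cells of a type and less RNA per cell cannot be told apart.

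Promoter sequence was looked up as a description of genes that were chosen for a shared rise. RefSeq promoters (build GRCm38.p6) were found for 28 of the 31 symbols and searched over the 250 bases before the start on both strands. The palindromic CRE, TGACGTCA, was present in 4 of the 28, which is 14.3%, against 3.04% of the 10753 tested symbols with a promoter. Its core TGACG, which every full CRE contains, was present in 18 of the 28, or 64.3%, against 29.9% of tested symbols. For the 43 panel genes that passed the same limits, 35 had a promoter, of which 22.9% held the full site and 77.1% the core. The EGR site GCGTGGGCG was found in 2 of the 28 (7.14% against 1.23%), the AP-1 site TGANTCA in 3 (10.7% against 5.38%), the TATA letters TATAAA in 3 (10.7% against 8.03%) and a CArG box in none (against 1.44%). A match describes letters only, and its absence says nothing about a factor. The 4 promoters with a full CRE are printed because they show how differently that site can be placed, with the CRE in capitals and each ending at the base before the start. Their CREs begin 85 bases before the start in Suv39h2, 121 in Arl5b, 37 in Spag4 and 18 in Ccnl1.
Suv39h2, chr2:3474987-3475236, minus strand: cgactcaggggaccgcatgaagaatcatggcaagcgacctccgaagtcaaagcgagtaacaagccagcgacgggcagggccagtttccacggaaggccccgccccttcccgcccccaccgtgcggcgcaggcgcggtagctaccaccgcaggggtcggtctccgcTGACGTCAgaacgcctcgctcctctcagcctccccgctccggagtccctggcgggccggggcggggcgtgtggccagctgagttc
Arl5b, chr2:15055070-15055319, plus strand: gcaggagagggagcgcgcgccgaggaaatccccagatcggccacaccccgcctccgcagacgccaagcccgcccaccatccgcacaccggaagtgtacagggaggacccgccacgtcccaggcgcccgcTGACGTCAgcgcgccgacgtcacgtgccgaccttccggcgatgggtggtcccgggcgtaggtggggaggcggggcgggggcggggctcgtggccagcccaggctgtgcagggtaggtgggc
Spag4, chr2:156064963-156065212, plus strand: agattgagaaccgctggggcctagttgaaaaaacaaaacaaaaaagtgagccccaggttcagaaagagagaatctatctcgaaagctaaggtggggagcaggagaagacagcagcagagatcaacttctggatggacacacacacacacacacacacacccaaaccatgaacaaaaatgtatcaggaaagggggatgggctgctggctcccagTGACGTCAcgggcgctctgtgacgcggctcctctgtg
Ccnl1, chr3:65958250-65958499, minus strand: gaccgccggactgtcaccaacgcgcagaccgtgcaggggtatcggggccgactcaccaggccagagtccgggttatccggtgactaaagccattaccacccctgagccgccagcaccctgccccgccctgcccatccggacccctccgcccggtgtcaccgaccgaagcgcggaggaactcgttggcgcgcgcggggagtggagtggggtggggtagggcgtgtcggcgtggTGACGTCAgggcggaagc
The promoter of Ifrd1, the gene with the smallest adjusted p at 60 min of sustained activity with U0126, is printed for the pair of sites close to its start, with the EGR site (read on the opposite strand) and the CRE core in capitals, beginning 60 and 47 bases before the start.
Ifrd1, chr12:40223190-40223439, minus strand: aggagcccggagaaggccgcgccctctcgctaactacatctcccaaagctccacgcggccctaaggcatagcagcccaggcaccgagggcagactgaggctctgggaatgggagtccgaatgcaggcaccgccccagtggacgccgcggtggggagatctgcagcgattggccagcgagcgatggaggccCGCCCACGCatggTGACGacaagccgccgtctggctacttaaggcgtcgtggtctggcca

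**Figure D1:**
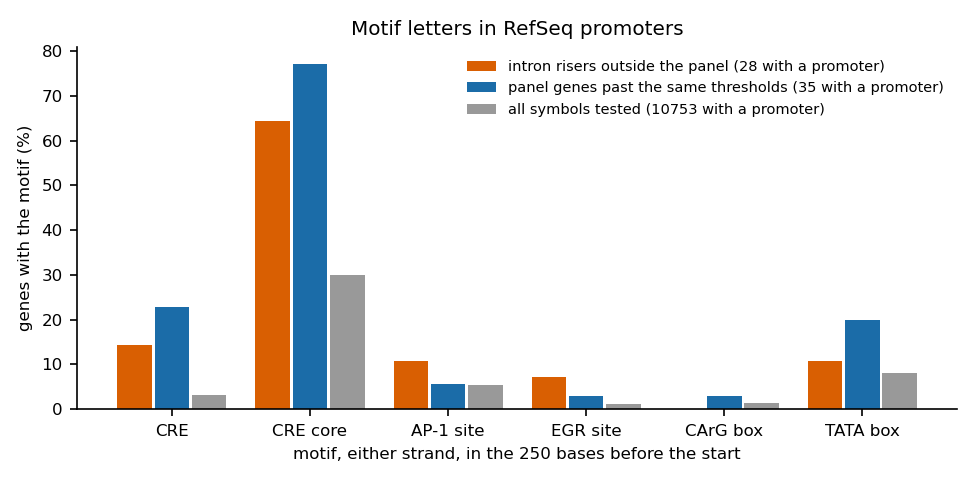
Share of genes, in percent, whose RefSeq promoter holds each motif on either strand in the 250 bases before the start, for the 31 intron risers outside the panel (28 with a promoter), the panel genes past the same limits (35) and all symbols tested (10753). The CRE core is present in 64.3% of the risers outside the panel and in 29.9% of all symbols tested.

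The values that chose the genes are given first, as a description. The log2 difference between 60 min of sustained activity and no stimulation in vehicle cultures ran from 1.5 to 2.72 with a median of 1.86. In every gene both stimulated replicates exceeded both unstimulated ones, as they did in 13.4% of all transcripts tested. The choice itself favours such a separation, so it adds no support. Just inside the limit on the difference lay Pmaip1 (1.5), Cited2 (1.5) and Nhp2l1 (1.53), and just outside it Glrx (1.49), Opa3 (1.47) and Col3a1 (1.41). Nearest to the limit on level were Cited2, Hmgn5 and Nfatc2 at 3.19, 4.07 and 5.40 RPM inside it, and Fosl1, Trim71 and Marco at 2.23, 1.77 and 1.70 RPM outside it. The table scales levels to library depth and not to intron length, so levels are compared within a gene only.

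Of the roles assigned to the 30 genes, transcription regulators were the largest class, with 9 genes. The share of this class among all symbols was not counted. Ifrd1, a co-regulator first found as an induced gene in nerve-like cells treated with growth factor, had 382 and 306 RPM after 60 min of sustained activity in vehicle cultures, against 61.5 and 60.4 RPM without stimulation. Arid5a, an AT-rich DNA-binding protein that in mouse immune cells also stabilises mRNAs, had 37.4 and 41.3 RPM against 5.92 and 7.6 RPM in the same groups. Taf13, a subunit of the general factor TFIID, had 31.0 and 21.6 RPM against 4.91 and 4.37 RPM. Pnrc1, a nuclear receptor coactivator, had 16.7 and 14.0 RPM against 2.77 and 3.19 RPM. Each of these 4 genes thus stood more than 2.2 log2 units higher after stimulation, with no overlap between the groups. Erf is an ETS-family repressor that ERK phosphorylates and moves out of the nucleus. It had 29.5 and 23.3 RPM at 60 min against 7.12 and 6.82 RPM without stimulation. The other 4 were Klf9, a zinc-finger factor known as a thyroid and glucocorticoid hormone target in neurons, Nfatc2, a factor activated by calcineurin, the small Maf protein Mafk, and Cited2, which binds the coactivators CBP and p300. Their log2 differences were 1.83, 1.70, 1.56 and 1.5.

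A pair of genes act in mRNA turnover and 4 in RNA processing. Tob1, an antiproliferative protein that recruits the CCR4-NOT deadenylase, had 15.0 and 13.4 RPM at 60 min, against 2.75 and 3.17 RPM without stimulation. Its paralogue Tob2 had 8.14 and 7.09 RPM at 60 min, against 2.30 and 2.20 RPM without stimulation. Ccnl1 encodes cyclin L1 and Cdk11b a kinase that pairs with L cyclins in splicing control. Ccnl1 introns had 298 and 224 RPM at 60 min against 88.2 and 86.3 RPM, and Cdk11b introns 102 and 87.4 RPM against 23.7 and 22.2 RPM. Cyclin and kinase were both chosen for this rise, so their shared direction follows from the choice. Sap18, a subunit shared by a histone deacetylase complex and the exon junction complex, had 81.4 and 65.6 RPM against 20.3 and 21.6 RPM, which its copy Sap18b shares. Nhp2l1, which encodes the U4 snRNA-binding protein also called Snu13, had 13.1 and 10.1 RPM against 3.82 and 3.86 RPM.

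The remaining genes have little in common by role. Suv39h2, a histone methyltransferase that places the repressive mark of heterochromatin, had 28.4 and 25.1 RPM at 60 min against 5.78 and 6.5 RPM without stimulation. Its span overlaps that of Dclre1c in RefSeq, the one protein-coding overlap among the 31, and no source used here says whether the deposited levels kept strands apart. Idi1, which isomerises the building block of sterols and other isoprenoids, had 116 and 92.0 RPM against 25.5 and 18.7 RPM. Gla, the lysosomal alpha-galactosidase, had 21.9 and 18.6 RPM against 4.87 and 4.12 RPM. Selk, a selenoprotein of the endoplasmic reticulum, had 60.8 and 48.7 RPM against 13.6 and 11.6 RPM, and Arl5b, a GTPase of the Golgi, 60.4 and 64.6 RPM against 14.7 and 14.9 RPM. These 5 genes all stood at least 2.06 log2 units higher. Itprip, which binds the inositol trisphosphate receptor, had the largest difference of the 31 (2.72), with 7.97 and 7.70 RPM against 0.643 and 1.31 RPM. Ube2ql1 of the ubiquitin-conjugating family, Ubald1, the ribosomal protein gene Rps16, the iron-sulphur cluster protein Isca1, the nuclear envelope protein Spag4, the membrane protein Mpzl3, the nucleosome-binding Hmgn5, Leng8 and the BH3-only death gene Pmaip1 had differences between 1.5 and 1.96.

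**Figure D2:**
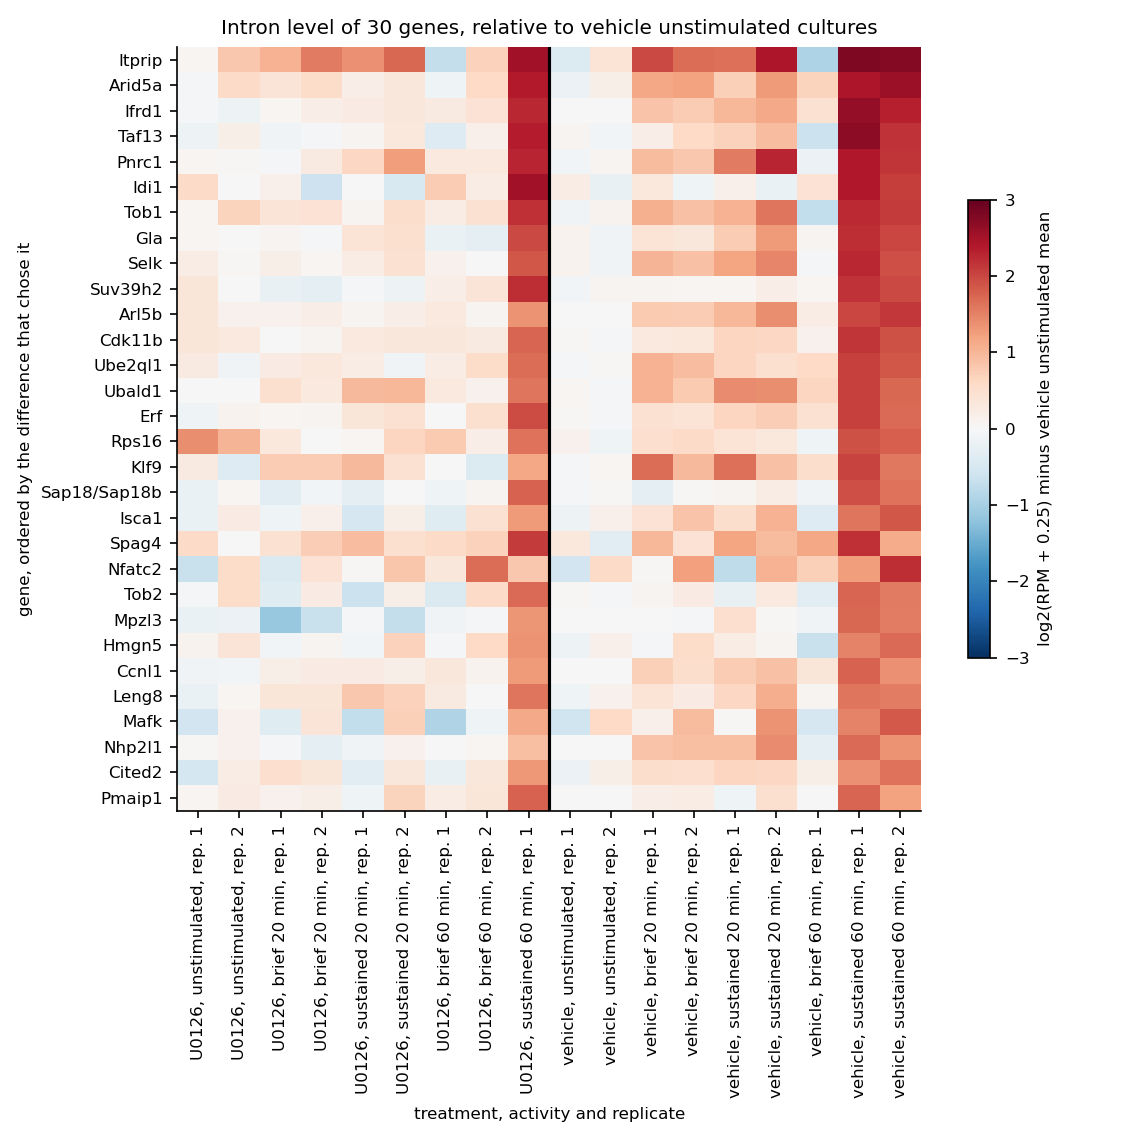
Intron level of the 30 distinct genes (rows, ordered by the difference that chose them) in each replicate (columns), as log2(RPM + 0.25) minus the mean of vehicle unstimulated cultures; U0126 cultures stand left of the black line and vehicle cultures right of it. The column of U0126 sustained 60 min and both columns of vehicle sustained 60 min are darker than the others in most genes; Nfatc2 is an exception with U0126.

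The genes differed in how high they stood at 20 min, which is again described without a test because the unstimulated vehicle cultures were used in the choice. By 20 min of sustained activity in vehicle cultures the median log2 difference from unstimulated cultures was 0.80, and 12 of 30 genes stood at 1 or more, as did 0.483% of all transcripts tested. In 10 genes the change in RPM at 20 min had reached 40% or more of the change at 60 min: Itprip, Pnrc1, Tob1, Selk, Arl5b, Ubald1, Klf9, Spag4, Leng8 and Nhp2l1. Pnrc1 went furthest, with 2.77 and 3.19 RPM unstimulated, 9.27 and 15.5 RPM at 20 min and 16.7 and 14.0 RPM at 60 min. In 9 genes the share was under 15%: Idi1, Suv39h2, Rps16, Sap18, Nfatc2, Tob2, Mpzl3, Hmgn5 and Pmaip1. Idi1 had 25.5 and 18.7 RPM unstimulated, 24.4 and 18.9 RPM at 20 min and 116 and 92.0 RPM at 60 min. Suv39h2 had 5.78 and 6.5, 6.43 and 7.01, and 28.4 and 25.1 RPM at the same stages. Neither gene stood apart from unstimulated cultures at 20 min, and both stood far above them at 60 min. The paralogues Tob1 and Tob2 fell in different classes, at 43.9% and 2.27% of their 60 min change.

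In vehicle cultures after brief activity the median log2 difference from unstimulated cultures was 0.58 at 20 min and 0.07 at 60 min, where 1 library was left. Selk had 25.7 and 23.4 RPM at 20 min after brief activity and 12.3 RPM at 60 min, against 13.6 and 11.6 RPM unstimulated. Ifrd1 had 110 and 104 RPM and 83.2 RPM at these times, against 61.5 and 60.4 RPM. At 60 min after brief activity 19 of the 30 genes lay within 0.5 log2 units of unstimulated cultures, as did 78.1% of all transcripts tested. Of the others 6 stood higher, with Spag4 at 1.12 and Arid5a, Ubald1, Nfatc2, Ube2ql1 and Klf9 between 0.53 and 0.67. The remaining 5 stood lower, Itprip at -0.99, Tob1 at -0.75, Hmgn5 at -0.68, Taf13 at -0.66 and Mafk at -0.63. The library left is replicate 1, set here against the mean of both unstimulated replicates. Mafk had 2.77 RPM in it and 2.58 RPM in unstimulated replicate 1, so it was not lower than that replicate. Itprip, Tob1, Hmgn5 and Taf13 were, although Itprip rested on 4 reads and Hmgn5 on 7.

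Sustained and brief activity could be compared at 20 min in vehicle cultures that had no part in the choice. The median difference, sustained minus brief, was 0.23 log2 units over the 30 genes and 0.01 over all 21520 transcripts tested, and 21 of the 30 were above 0. No gene of the 30 passed an adjusted p of 0.05 in limma, and 0% of all transcripts were called higher. At an unadjusted p of 0.05 the numbers were 8 of the 30 and 351 of all transcripts, and edgeR on the recovered reads called 0 of the 30. Pnrc1 had the largest difference, with 9.27 and 15.5 RPM after sustained and 5.95 and 5.42 RPM after brief activity (log2 difference 1.05 ± 0.25, SE, adjusted p = 1.00). Gla had 7.74 and 11.1 RPM against 6.06 and 5.71 RPM (0.64 ± 0.16, adjusted p = 1.00). In both genes the groups did not overlap, and in 14 of 30 genes both sustained replicates exceeded both brief ones, against 10.1% of all transcripts. Ube2ql1 went the other way, with 20.1 and 18 RPM after sustained and 26.8 and 24.5 RPM after brief activity.

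MEK inhibition was compared with vehicle at 20 min, again in groups that had no part in the choice. Most genes were lower with U0126, though none passed the threshold in the fit used here, which treats replicate numbers as unrelated between groups. With replicate number added to the fit, limma called 5 of the 30 lower after sustained activity, against 27 of all transcripts. After brief activity that fit called 0 of the 30 and 19 of all transcripts lower. The labels do not say that these numbers are shared between groups. After sustained activity the median difference, U0126 minus vehicle, was -0.53 log2 units over the 30 genes and 0.00 over all transcripts, and 27 of 30 were below 0. In 20 of the 30 both U0126 replicates lay below both vehicle replicates, against 10.2% of all transcripts. Limma called 0 of the 30 and 0.0139% of all transcripts lower, 15 of the 30 had an unadjusted p under 0.05 against 423 of all 21520, and edgeR called 0 of the 30. Arl5b had 15.7 and 17.1 RPM with U0126 and 29.7 and 39.4 RPM with vehicle (log2 difference -1.04 ± 0.14, SE, adjusted p = 0.0739). Nhp2l1 had 3.54 and 4.19 RPM with U0126 and 7.36 and 10.6 RPM with vehicle (-1.15 ± 0.18, adjusted p = 0.119). Selk had 14.6 and 17.3 RPM with U0126 and 28.6 and 35.1 RPM with vehicle (-0.98 ± 0.15, adjusted p = 0.122). Ifrd1 had 72.1 and 76.9 RPM with U0126 and 122 and 134 RPM with vehicle (-0.78 ± 0.12, adjusted p = 0.119). In each of these 4 genes both U0126 replicates lay below both vehicle replicates, without overlap.

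After brief activity the picture at 20 min was much alike. The median difference, U0126 minus vehicle, was -0.50 log2 units over the 30 genes and 0.01 over all transcripts, with 29 of 30 below 0. In 22 of the 30 both U0126 replicates lay below both vehicle replicates, against 9.5% of all transcripts. Limma called 0 of the 30 and 0.0279% of all transcripts lower, 15 of the 30 had an unadjusted p under 0.05 against 404 of all transcripts, and edgeR called 0 of the 30. Nhp2l1 had 3.68 and 3.08 RPM with U0126 and 7.14 and 7.42 RPM with vehicle (-1.06 ± 0.18, SE, adjusted p = 0.323). Selk had 14.1 and 13.2 RPM with U0126 and 25.7 and 23.4 RPM with vehicle (-0.84 ± 0.15, adjusted p = 0.423). Arid5a had 8.85 and 9.88 RPM with U0126 and 15.3 and 15.7 RPM with vehicle (-0.72 ± 0.28, adjusted p = 1.00). Leng8 was the exception to the direction, with 18.2 and 18.2 RPM against 18.7 and 16.7 RPM.

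**Figure D3:**
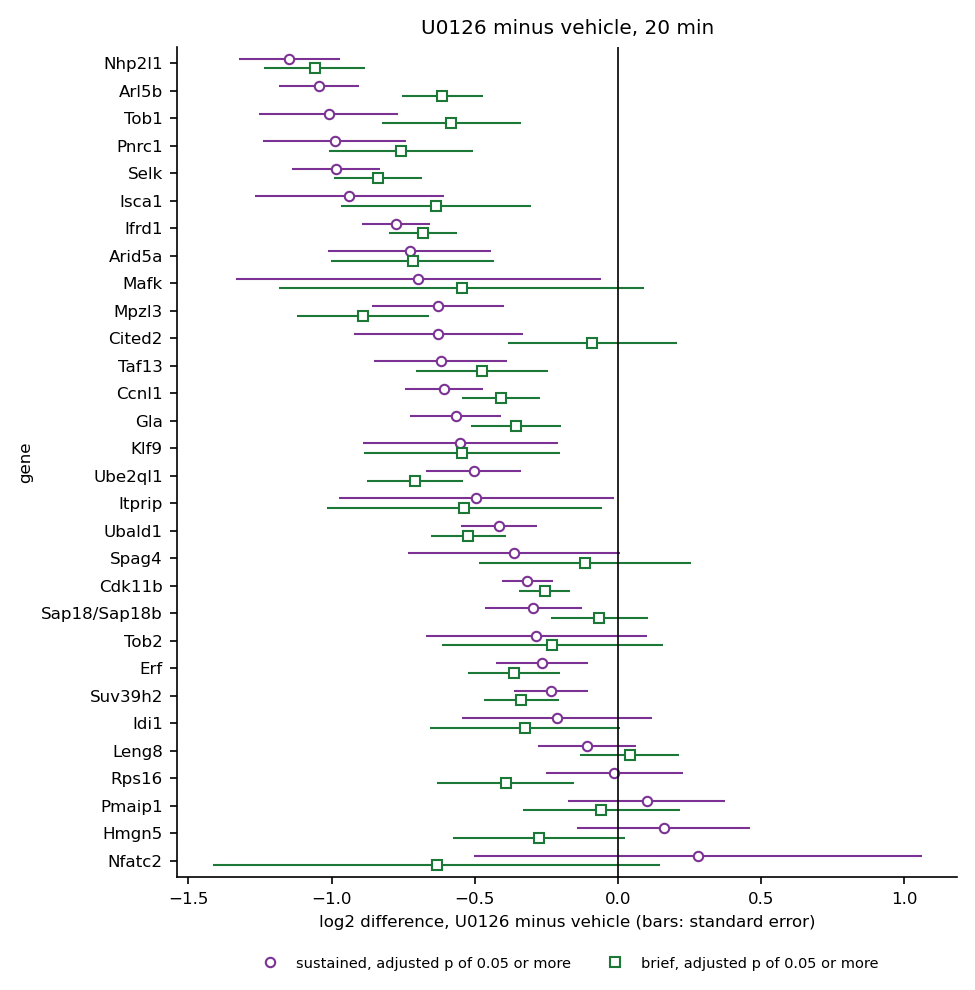
Log2 difference in intron level, U0126 minus vehicle, at 20 min of sustained (circles) and brief (squares) activity for each of 30 genes, with standard errors from limma; open symbols mark an adjusted p of 0.05 or more, which all 60 points have. Nhp2l1 lies furthest left under both patterns, at -1.15 and -1.06, and 27 and 29 of the genes lie left of 0.

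The panel genes that passed the same limits showed differences of the same sign at 20 min. Their medians were -0.72 after sustained and -0.85 after brief activity, U0126 minus vehicle, with 43 and 42 of 43 below 0 and 1 and 4 called lower. The difference between the 2 sets of genes was not tested.

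What was left of the 20 min response with U0126 was seen against unstimulated cultures that also held U0126. After sustained activity the median difference was 0.14 log2 units over the 30 genes and -0.03 over all transcripts. Of the 30 genes 18 stood above 0 and 12 below. One gene passed the threshold, Ubald1, a small protein with a ubiquitin-associated-like domain, against 0.0465% of all transcripts called higher. Ubald1 had 13.9 and 13.9 RPM at 20 min and 6.90 and 6.90 RPM unstimulated (log2 difference 0.98 ± 0.13, SE, adjusted p = 0.046 in limma). This call was lost when any 1 of the 4 replicates was left out (an unstimulated one being the mean of 2 libraries) and in edgeR, while the difference stayed above 0. Leng8 had 24.7 and 23.1 RPM at 20 min and 12.2 and 14.6 RPM unstimulated (0.83 ± 0.17, adjusted p = 0.175), and Pnrc1 4.73 and 7.39 RPM against 3.11 and 3.06 RPM (0.89 ± 0.25, adjusted p = 0.322). Selk had 14.6 and 17.3 RPM at 20 min and 14.7 and 13.0 RPM unstimulated, and Arl5b 15.7 and 17.1 RPM against 19 and 16.2 RPM. After brief activity the median was 0.02 log2 units over the 30 genes and -0.03 over all transcripts, limma and edgeR called 0 of the 30, and 0.0232% of all transcripts were called higher. At an unadjusted p of 0.05 there were 8 of the 30 and 1555 of all transcripts.

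By 60 min of sustained activity the genes were high with U0126 as well. This is the time and pattern that chose them, measured in cultures that the choice did not use, although with 1 library at 60 min, assumed to vary like the other groups. All 30 genes were above both unstimulated U0126 replicates, against 25.7% of all transcripts. The median difference, 60 min minus unstimulated, was 1.61 log2 units over the 30 genes, from 0.43 in Rps16 to 2.37 in Ifrd1, while the median of all transcripts was -0.15. Limma called 19 of the 30 higher and none lower, against 1.3% of all transcripts called higher. With libraries centred on their medians 21 of the 30 were called, and over all transcripts 278 were higher and 155 lower, in place of 280 higher and 403 lower. Without unstimulated replicate 1 the count was 14, and without unstimulated replicate 2 it was 15. EdgeR called 19 of the 30, the same genes.

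Transcription regulators gave 5 of 9 calls with U0126. Ifrd1 had 294 RPM at 60 min of sustained activity, against 58.6 and 54.5 RPM unstimulated (log2 difference 2.37 ± 0.15, SE, adjusted p = 8.83e-05 in limma). Taf13 had 24.7 RPM against 4.15 and 5.30 RPM (2.33 ± 0.28), Pnrc1 15.4 RPM against 3.11 and 3.06 RPM (2.23 ± 0.31), Arid5a 35.8 RPM against 6.46 and 10.2 RPM (2.11 ± 0.35) and Erf 27.7 RPM against 6.36 and 7.47 RPM (1.97 ± 0.20, adjusted p = 0.00206 in limma). Klf9, Cited2, Mafk and Nfatc2 did not pass, at 1.22 ± 0.42, 1.45 ± 0.36, 1.36 ± 0.78 and 0.87 ± 0.96. Of the RNA processing genes 3 of 4 were called higher. Cdk11b had 77.9 RPM against 29.7 and 28.1 RPM (1.42 ± 0.11, adjusted p = 0.000543 in limma), Ccnl1 210 RPM against 81.0 and 81.8 RPM (1.37 ± 0.17, adjusted p = 0.00561) and Sap18 71.8 RPM against 18.3 and 21.9 RPM (1.83 ± 0.21, adjusted p = 0.00401). Nhp2l1 had 7.37 RPM against 3.92 and 4.24 RPM (0.82 ± 0.22, adjusted p = 0.0790 in limma). Among the rest, Suv39h2 rose to 29.5 RPM, against 7.92 and 6.09 RPM (2.05 ± 0.16, adjusted p = 0.000569 in limma), and Gla to 18.6 RPM, against 4.72 and 4.49 RPM (1.96 ± 0.19, adjusted p = 0.00199). Idi1 rose to 127 RPM, against 32.5 and 21.6 RPM (2.25 ± 0.41, adjusted p = 0.0219 in limma). Tob1 passed and Tob2 did not, with differences of 1.83 ± 0.30 and 1.45 ± 0.47.

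The U0126 and vehicle levels at 60 min of sustained activity are set side by side without a test, since the vehicle cultures chose the genes. The median difference, U0126 minus vehicle, was -0.23 log2 units, and 25 of 30 genes lay within 0.5 log2 units of vehicle, against 83.6% of all transcripts. Measured as RPM gained over the unstimulated cultures with the same treatment, the U0126 response was between 28.9% and 129% of the vehicle response, with a median of 80.3%. The U0126 level at 60 min is replicate 1 alone, while the other means hold both replicates, so unlike replicates are compared. The ends of the range were Nfatc2 and Spag4, in which replicate 2 stood at medians of 2.53 and 0.691 times replicate 1. Suv39h2 had 29.5 RPM with U0126 and 28.4 and 25.1 RPM with vehicle, Pmaip1 8.68 RPM and 8.48 and 5.82 RPM, and Idi1 127 RPM and 116 and 92.0 RPM. Arl5b stood lower, with 38.2 RPM with U0126 and 60.4 and 64.6 RPM with vehicle, as did Klf9, with 12.4 RPM and 23 and 16.8 RPM, and Nhp2l1, with 7.37 RPM and 13.1 and 10.1 RPM.

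**Figure D4:**
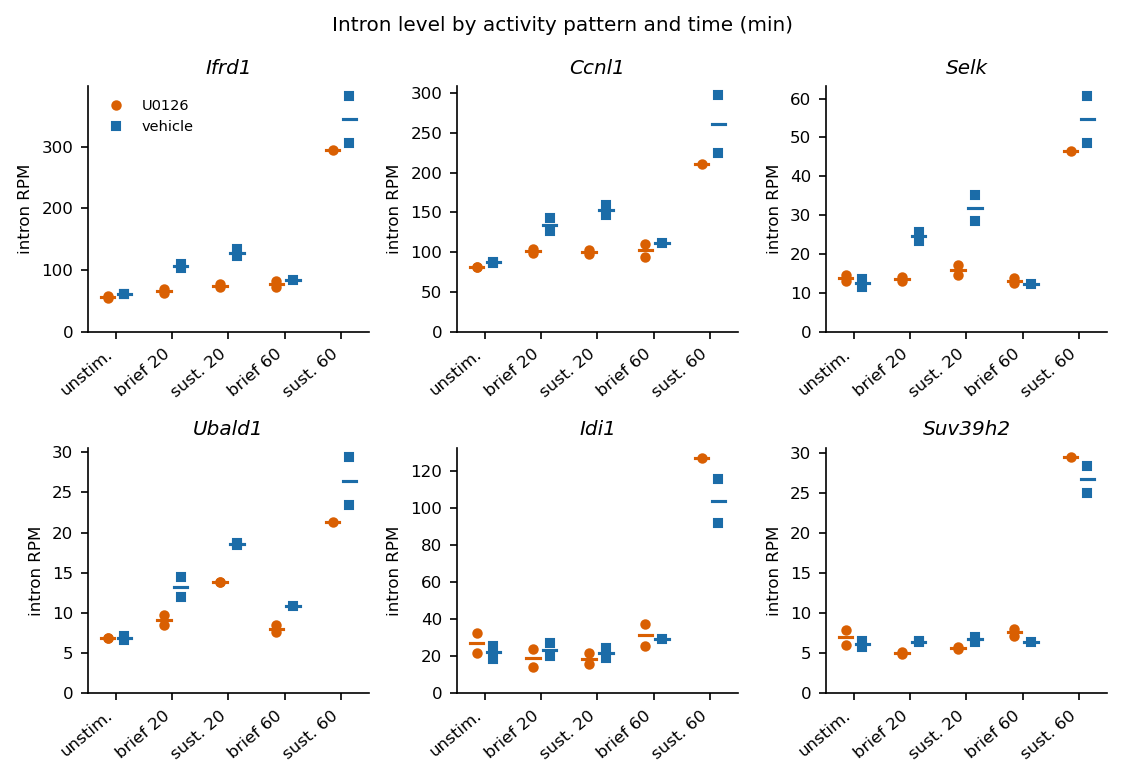
Intron level in RPM of 6 genes in each group, with U0126 as circles and vehicle as squares, 1 symbol per replicate and a line at the mean. In Selk the U0126 cultures stay between 12.5 and 17.3 RPM in every group but sustained 60 min (46.4 RPM), and in Idi1 and Suv39h2 the high group under either treatment is sustained 60 min.

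After brief activity no gene passed the threshold at 60 min with U0126, in a comparison that shares its unstimulated cultures with the one above. The median difference from unstimulated U0126 cultures was 0.04 log2 units over the 30 genes and -0.03 over all transcripts, limma called 0 of the 30 and 0% of all transcripts higher, and edgeR called 0 of the 30. At an unadjusted p of 0.05 there were 3 of the 30 and 1028 of all transcripts. Set directly against each other at 60 min with U0126, in a comparison added after the values were seen, sustained activity exceeded brief activity by a median of 1.47 log2 units over the 30 genes, against -0.10 over all transcripts. Limma called 18 of the 30 higher and 0.846% of all transcripts higher, and with libraries centred on their medians 17 of the 30 and, over all transcripts, 175 higher and 55 lower in place of 182 and 116. The count was 12 without either brief replicate, and 11 in a fit without the 2 vehicle groups that chose the genes. Taf13 had 24.7 RPM after sustained activity and 3.51 and 5.14 RPM after brief activity (2.47 ± 0.28, SE, adjusted p = 0.00388 in limma), Gla 18.6 RPM and 3.87 and 3.66 RPM (2.23 ± 0.19) and Suv39h2 29.5 RPM and 7.12 and 8.06 RPM (1.93 ± 0.16). Nfatc2 was the one gene below 0, with 2.58 RPM after sustained and 1.81 and 4.88 RPM after brief activity. Its sustained library is replicate 1 and exceeded brief replicate 1 (1.81 RPM), so the sign rests on brief replicate 2. In this gene replicate 2 was higher than replicate 1 in 8 of 8 groups.

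**Figure D5:**
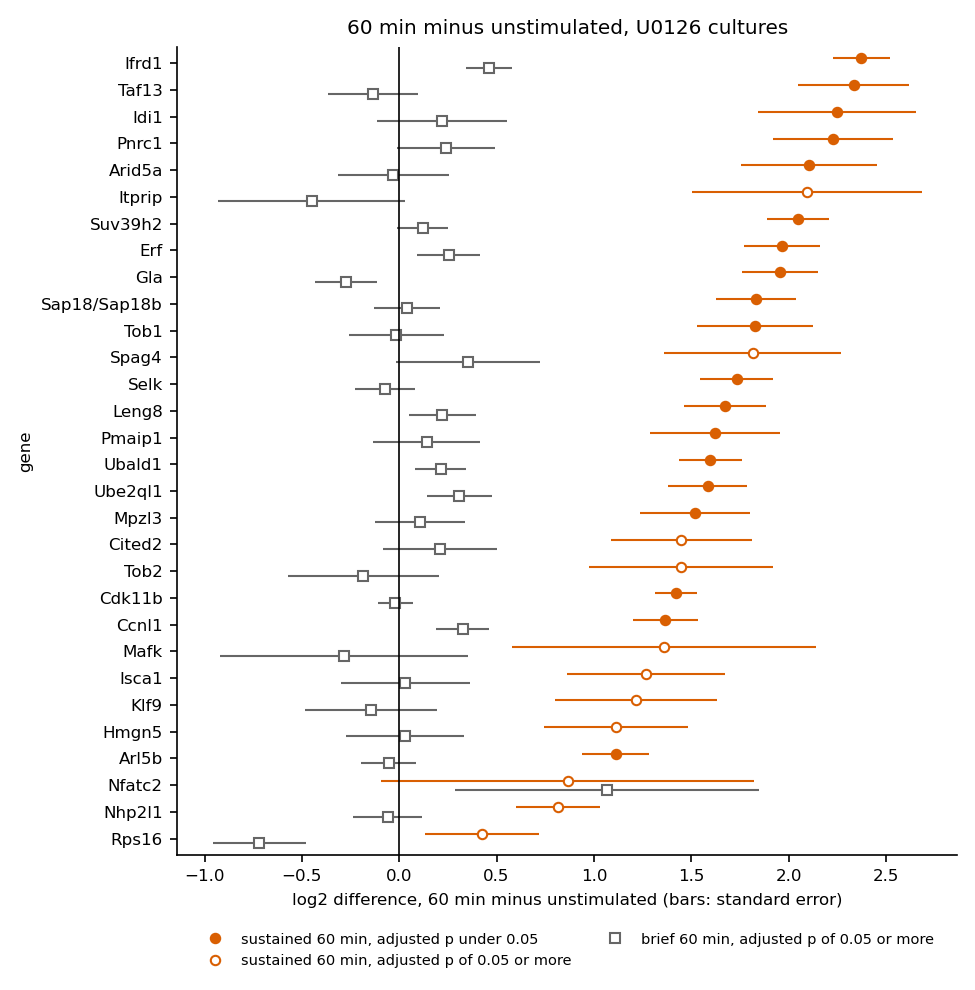
Log2 difference in intron level from unstimulated cultures at 60 min of sustained (circles) and brief (squares) activity in U0126 cultures, for each of 30 genes with standard errors from limma; filled symbols have an adjusted p under 0.05. The circles lie between 0.43 and 2.37, with 19 filled, and no square is filled.

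The panel genes past the same limits gave 29 of 43 calls, all higher, at 60 min of sustained activity with U0126, with a median of 2.03 log2 units. After brief activity at 60 min their median was 0.21 and 0 were called. These values stand beside those of the 30 genes without a test of the difference.

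Some genes did not follow the rest. Rps16 was high in unstimulated U0126 cultures, with 20.0 and 15.2 RPM, against 8.14 and 6.73 RPM in unstimulated vehicle cultures. Its U0126 level was 7.77 and 11.6 RPM at 20 min and 23.5 RPM at 60 min of sustained activity, so its difference of 0.43 ± 0.29 from unstimulated cultures was the smallest of the 30. Its span contains a small nucleolar RNA gene in RefSeq, whose part in the level was not tested. Nfatc2 differed between replicates in every group, with replicate 2 higher than replicate 1 in 8 of 8 groups by a median of 2.53 times, which is as large as many of its differences between groups. Mafk was higher in replicate 2 in 8 of 8 groups (median 1.77 times) and Idi1 lower in 8 of 8 (median 0.732 times). Isca1 and Arid5a were also higher in replicate 2 in 8 of 8 groups, by medians of 1.35 and 1.20 times. For Idi1 this gap was small beside the rise at 60 min.

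Relatives of the 30 genes, gathered after the genes were known and therefore not tested as sets, mostly stood near their unstimulated level in vehicle cultures. The log2 difference between 60 min of sustained activity and no stimulation was 2.22 in Idi1, against -0.11 to 0.75 with a median of 0.10 in 12 other genes of sterol synthesis. Ccnl1 differed by 1.58 and cyclin L2 (Ccnl2) by 0.11, and Suv39h2 differed by 2.08 and Suv39h1 by -0.30. Pnrc2, Ifrd2 and Arl5a differed by -0.16, -0.32 and -0.39. Btg1, Btg2 and Btg3, relatives of Tob1 and Tob2, differed by 1.38, 2.89 and 0.72. Maff, a relative of Mafk, differed by 5.25, while Mafg differed by -0.25. Btg2 and Maff passed both limits and so are on the panel. The difference shown is the one that chose the genes, so any relative outside the panel that passed both limits would itself be a chosen gene. A gap between the chosen genes and their relatives outside the panel thus follows in part from the choice. For 7 genes of the complexes of Sap18 the range was -0.13 to 0.82 (Pnn), with a median of 0.12. For 7 relatives of Ccnl1 and Cdk11b it was -0.23 to 0.70 (Ccnk), with a median of 0.13. The 4 relatives of Nfatc2 ran from -0.83 to -0.04.

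Of 10 gene lists covering signalling, transcription, synapses, transport and other groups, the calcium and calcineurin list holds Nfatc2, the list of inducible transcription factors holds Klf9 and Mafk, and the other 8 hold none of the 31. At 60 min of sustained activity with U0126, limma called 0 of 35 genes of the calcium list, with a median difference of -0.09 beside -0.15 over all transcripts. Of the 54 inducible transcription factors tested, 5 were called higher (Maff, Fosl1, Nfil3, Rel and Etv3) and 1 lower (Hivep3). Their median was -0.13, and 1.3% of all transcripts were called higher and 1.87% lower. At 20 min, neither list had a call in any of the comparisons of U0126 with vehicle or of sustained with brief activity. No captured enhancer region of 351 has a gene of the 31 as its nearest gene.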

How the data were processed

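Intron levels of 27962 transcripts in 24 total RNA libraries were deposited by the authors in RPM; per the submitters' processing notes STAR, SAMtools and bedtools were used with build mm9, and no versions or strand settings are given in the sources used here. Libraries were made with a stranded total RNA kit, per the labels' protocols. Deposited columns sum to 963706 to 966590, and 100% of their values came out as whole reads (tolerance 0.05 reads), which gave the depths; intervals from such depths would cover counting error only. Every value column matched a sample. The captured tables served only for the panel's symbols and the enhancer assignments.

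Tests ran in limma 3.58.1 (R 4.3.3) on log2(RPM + 0.248), 0.248 RPM being the value below which 10% of the values above 0 lie, over 21520 transcripts whose mean reached it, with 18 replicates in 10 groups in 1 fit (8 residual degrees of freedom) and Benjamini-Hochberg adjustment over all transcripts at 0.05. Differences near 0.248 RPM are understated. edgeR 4.0.16 (quasi-likelihood, recovered reads) was an alternative, and both were checked on simulated data. Python 3.11.15, numpy 2.4.6, pandas 2.3.3 and matplotlib 3.10.9 did the rest. The genes, lists and comparisons were chosen with earlier results of these data known. Named are the 12 genes with the largest difference under the selection, up to 5 per direction and called comparison with the smallest adjusted p, those on a list, and those beside a limit; other genes named were chosen after their values were seen.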

Additional observations from a re-analysis of the deposited data

How the results depend on the processing

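Across pseudocount, filter, scaling, spread, edgeR and left-out replicates, no called difference of the 30 genes changed sign. At 60 min of sustained activity with U0126, 19 genes were called. Under the alternatives the count was 18 to 21, except with left-out replicates, which gave fewer, and with the replicate block. The block called 29 of the 30 higher, and over all transcripts 844 higher and 2104 lower, against 280 and 403 without it. All 19 genes stayed called with edgeR, and 17 of them in a fit without the 2 vehicle groups that chose the genes. Ubald1, the 1 call at 20 min of sustained activity with U0126, was lost (count 0) with libraries centred on their medians, without the vehicle groups that chose the genes, with edgeR, with a spread that varies with level and in each of the left-out replicates (0 to 0); the block gave 3 calls. Of these 3 calls 2 were higher, Ubald1 among them, and 1 was lower. Over all transcripts the block called 94 higher and 209 lower in that comparison, against 10 and 4 without it. The block gave 5 calls, all lower, for U0126 against vehicle at 20 min of sustained activity, where the fit without it gave 0. Sustained against brief activity at 60 min with U0126 had 18 calls, 11 without the groups that chose the genes, and fewer than 18 without either brief replicate. With the block it had 27, and over all transcripts 562 higher and 727 lower, against 182 and 116 without the block. The labels do not say that a replicate number is shared between groups, so the fits above are without the block. Differences between replicates 1 and 2 correlated across transcripts at 0.841 to 0.904 between the 28 pairs of groups, a hint from the data that numbers may mark a shared source, with only 2 numbers to judge by. If they do, a fit without the block counts the shared gap as spread and calls fewer genes. The counts of 0 of the 30 at 20 min therefore do not show that a difference is absent. The cause of these moves was not tested. The comparisons of 60 min of sustained activity with U0126 rest on 1 library, which could not be left out. The spread that varies with level, and the comparison of the 2 patterns at 60 min with U0126, were added after the data were seen. The 4 comparisons of captured enhancers were not run, since no region is assigned to these genes.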
